A study of Mus musculus with 119 samples.

Results

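Unstimulated bone marrow-derived macrophages (BMDMs) carrying the Nfkb1[SS/AA] mutation were compared with unstimulated WT BMDMs by RNA-seq. The comparison rests on 12 of the 119 libraries of the series: the 6 that the labels give as Nfkb1[SS/AA] and untreated (replicates 1 to 6), and the 6 that they give as WT and untreated in the experiment named for TPL-2 (replicates 4 to 9). The other libraries are of Map3k8[D270A] cells, of Elk1-/-Elk4-/- cells, of WT cells given PD0325901, its solvent DMSO or RSKi47, and of cells given 100 ng/ml LPS. BMDMs are macrophages that grow out of mouse bone marrow cultured with medium conditioned by L cells, and they stood overnight in low serum before they were harvested. Both groups carry the strain label C57BL/6(NIMR), neither received LPS or an inhibitor, and both were grown and kept in the same way according to the labels. The mutation is in the germ line and is therefore carried by all cells of the culture. The mutant libraries belong to an experiment of their own that held no WT libraries, so genotype and experiment cannot be told apart in any value below. For this reason the values in WT cells of another experiment, treated with DMSO for 10 min (3 libraries), are given beside the main ones.

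Nfkb1 encodes p105, the precursor of the NF-kB subunit p50. In resting cells p105 holds NF-kB subunits in the cytoplasm, and it also binds the kinase TPL-2 (encoded by Map3k8) together with ABIN-2 (encoded by Tnip2), which keeps TPL-2 from activating its target kinases. When a receptor such as TLR4 is engaged, the IKK complex phosphorylates p105 on a pair of serines, p105 is degraded by the proteasome, and TPL-2 is set free to start the MAP kinase chain that leads to ERK. The Nfkb1[SS/AA] allele replaces these serines with alanines, so that IKK cannot trigger this step. Unstimulated cells show what the mutation is accompanied by before any ligand is given.

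Each library has a deposited log2 value for 18098 genes, normalized by the authors. A difference of 1 on this scale was read as 2-fold. How the values were transformed is not stated in the sources used, so a printed difference may be smaller than the log2 fold change of the read counts. The depth of each library cannot be read from these values, so the spread between libraries sets the precision. Pairs of WT libraries differed by a root mean square of 0.120 to 0.254 over the 11971 genes tested, pairs of mutant libraries by 0.157 to 0.251, and pairs of 1 library from each group by 0.238 to 0.352. The median was 0.156 for WT pairs within replicates 4 to 6 or within 7 to 9, and 0.229 for WT pairs across these 2 sets. The paper calls its libraries biological replicates, but the labels do not say whether they came from separate animals. The p-values therefore measure the spread between these libraries, which may in part be technical. Macrophage markers were high in both groups: 14 of 15 had a value, and their summed level was 19.44 to 19.59 in the WT and 19.55 to 19.76 in the mutant libraries, with 3 of the 14 markers higher and 3 lower in the mutant (16.9% and 15.1% of all genes). The neutrophil and precursor list summed to 9.38 to 10.34 in WT and 9.26 to 10.71 in mutant libraries, and of its 9 tested members none was higher and 1, Mmp9, was lower (16.9% and 15.1% of all genes). Ly6g, Elane and Ctsg were below 0 on average in both groups, whereas S100a8 had means of 4.92 in WT and 5.34 in the mutant, S100a9 of 5.17 and 5.53, and Mmp8 of 9.19 and 9.59.

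In unstimulated cells 61 genes were changed, that is they passed limma's test at a Benjamini-Hochberg adjusted p of 0.05 with a difference of 2-fold or more, which is 0.51% of the genes tested. Of these, 43 were higher in the mutant (0.359%) and 18 were lower (0.15%). With DMSO-treated WT cells as the control 13 genes were higher and 6 lower (0.109% and 0.0501%), and 7 of these 19 were among the 61. Mutant replicates 1 to 3 alone gave 27 higher and 22 lower genes, and replicates 4 to 6 alone 82 and 23. The genes higher in the mutant were led by Gbp2b, a single interferon-inducible GTPase, and by Saa3, an acute-phase protein, and they included 12 genes of cholesterol synthesis and 4 genes of the response to amino acid shortage. The genes lower in the mutant were of mixed function and included the macrophage surface proteins Siglec1, Cx3cr1 and Mgl2 and the enzyme Qpct. By adjusted p alone, 3832 genes differed (32%), of which 2022 were higher (16.9%) and 1810 lower (15.1%), most by little. The median difference over all genes tested was 0.0006. For comparison, Map3k8[D270A] cells, which came from the same experiment as the WT libraries, differed from them without LPS in 205 genes by adjusted p (1.71%) and in 8 genes with the 2-fold threshold (0.0668%).

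The values of the 6 libraries of each group did not overlap for 1721 of the genes tested (14.4%; 8.13% higher and 6.25% lower), and for 50 of the 61 changed genes. A stricter description sets the mutant libraries against all 26 other unstimulated libraries of the series without pretreatment or with 10 min of pretreatment, WT included. In 133 of the genes tested (1.11%; 0.777% above and 0.334% below) every mutant library lay beyond all of these. Among the changed genes 12 did so. These were Gbp2b, Saa3, Phgdh, Chac1, Asns, Mvd, Lss, Fdft1, Hsd17b7, Fabp5 and Aacs, all higher in the mutant, and Qpct, which was lower.

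**Figure D1:**
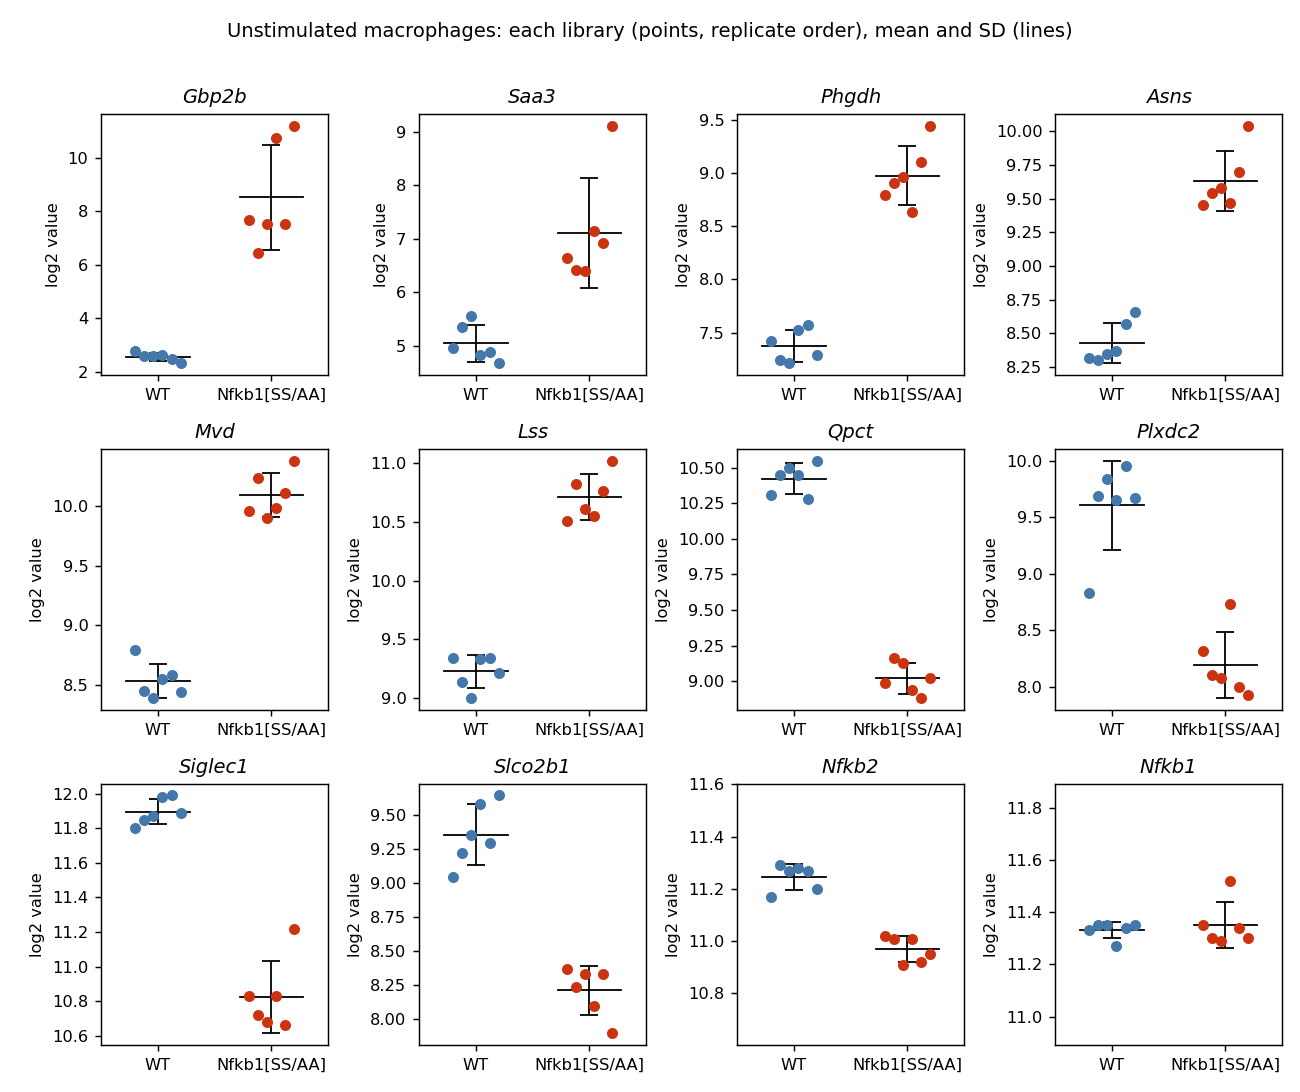
Deposited log2 value of 12 genes in each of the 6 WT (blue) and 6 Nfkb1[SS/AA] (red) unstimulated libraries, with the mean and SD in black; the vertical axes differ between genes and do not start at 0. The groups do not overlap for any gene shown except Nfkb1, and Gbp2b spreads from 6.43 to 11.21 within the mutant group.

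The mRNA of the mutated gene was measured before the rest. Nfkb1 (chr3:135584655-135691969 in GRCm38, the mm10 assembly) was at 11.27 in the lowest, 11.34 in the median and 11.35 in the highest WT library, and at 11.29, 11.32 and 11.52 in the mutant libraries. The ranges overlapped, and the difference was 0.02 with an SE of 0.05 (adjusted p = 0.853). Because the allele changes codons and leaves the gene in place, this level does not check the genotype. Map3k8, which encodes TPL-2, ran from 8.83 to 9.02 in WT and from 8.89 to 9.15 in the mutant, and Tnip2 from 9.35 to 9.56 and from 9.28 to 9.53. The IKK genes Chuk, Ikbkb and Ikbkg, the genes Btrc and Fbxw11 for the ligase subunits that recognise phosphorylated p105, and the kinase gene Gsk3b lay within 0.09 of WT on average. None of the 9 genes of the p105 complex and IKK passed the test, with adjusted p between 0.154 and 0.853. Against DMSO-treated WT cells 1 of the 9, Gsk3b, was higher (0.16, adjusted p = 0.0446; 9.32% of all genes).

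Small differences were seen among the NF-kB proteins. Nfkb2, the gene of the related precursor p100, was at 11.17 to 11.29 in WT (median 11.27) and at 10.91 to 11.02 in the mutant (median 10.98), with no overlap, a difference of -0.28 (SE 0.05, adjusted p = 2.69e-06). Relb, whose product pairs with that of Nfkb2, was lower by -0.15 (adjusted p = 0.00745) with ranges that overlapped, whereas Rela and Rel differed by 0.02 and 0.01. Of the 6 IkB family genes tested, 1 was lower, a share near the 15.1% of all genes: Nfkbie, which encodes IkB-epsilon, at 9.44 to 9.60 in WT and 9.06 to 9.51 in the mutant (-0.26, adjusted p = 0.000373). Nfkbia, the gene of IkB-alpha, was at 11.67 to 11.77 and 11.58 to 11.79. From DMSO-treated WT cells Nfkb2 and Nfkbie differed by -0.06 and -0.04 and Relb by less, and no NF-kB subunit or IkB gene passed the test.

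The largest difference in the comparison belonged to Gbp2b (chr3:142594816-142619179), which encodes a guanylate-binding protein, a family of GTPases that interferons induce and that act against intracellular microbes. The 6 WT libraries stood at 2.78, 2.58, 2.59, 2.61, 2.46 and 2.31, and the 6 mutant libraries at 7.66, 6.43, 7.53, 10.75, 7.54 and 11.21. Every mutant library was far above every WT library, and replicates 4 and 6 stood above the other mutant libraries. The difference was 5.96 (SE 0.37, adjusted p = 8.08e-26). It was 5.83 against DMSO-treated WT cells (adjusted p = 5.72e-19) and 4.73 without mutant replicates 4 and 6. Over the whole series, LPS-treated cells included, no library of another genotype was above 4.01 and no mutant library was below 6.43. In WT cells 1 h of LPS moved Gbp2b by 0.11.

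The neighbours of Gbp2b on chromosome 3 differed by much less. Gbp2, Gbp3, Gbp5 and Gbp7 lie beside it in the same cluster, and in the mutant they were higher than in WT by 0.66, 0.62, 0.62 and 0.64, with adjusted p from 0.00465 to 0.0170 and overlapping ranges. Gbp2 ran from 9.08 to 9.72 in WT and from 9.57 to 11.04 in the mutant. With DMSO-treated WT cells as the control the same 4 genes differed by -0.37, -0.31, -0.12 and -0.14, and none passed the test. Without mutant replicates 4 and 6 they differed from WT by 0.28, 0.20, 0.24 and 0.28, and none passed (adjusted p from 0.313 to 0.551). The members on chromosome 5 that could be tested, Gbp4, Gbp6, Gbp8 and Gbp9, differed from WT by -0.07 to 0.30, and none passed. These genes are near-identical in parts, and the authors estimated counts with RSEM, which divides reads between alike transcripts, so a share of the Gbp2b value may belong to a relative. In libraries of other genotypes, LPS-treated cells included, Gbp2, Gbp3, Gbp5 and Gbp7 reached 13.43, 12.39, 14.66 and 12.29, while Gbp2b stayed at or below 4.01. How the reads were divided was not tested.

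The promoter of Gbp2b is shown because the gene is known as a target of interferon, and the capitals mark the only match to the interferon-stimulated response element, searched on both strands as GAAA, any 2 bases and GAAA. RefSeq sequence of GRCm38.p6 was used, from 250 bases before to 50 bases after a start site at 142594847, which is 31 bases inside the gene as placed above, at chr3:142594597-142594896 on the + strand.
Gbp2b: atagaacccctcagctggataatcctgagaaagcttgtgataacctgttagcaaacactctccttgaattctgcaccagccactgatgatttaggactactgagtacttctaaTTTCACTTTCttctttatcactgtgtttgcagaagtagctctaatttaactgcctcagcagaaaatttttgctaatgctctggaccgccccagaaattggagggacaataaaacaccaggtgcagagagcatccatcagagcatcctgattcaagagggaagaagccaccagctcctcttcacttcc
The match begins at position -137, with that start site as 0, and is on the opposite strand. The same letters are found in 3.44% of the 32851 promoters of the table, in 361 of 9215 tested genes with a promoter (3.92%) and in 26 of 44 genes of the interferon list (59.1%). A match is a description of the letters and not a site of binding.

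Gbp2b lies 7.01 Mb from Nfkb1 on the same chromosome. Of the genes within 10 Mb on either side of Nfkb1, 94 had a value and 62 were tested, and 23 were higher and 12 lower in the mutant by adjusted p (56.5%, against 32% of all genes). Without mutant replicates 4 and 6 these were 14 and 8 of the 62, against 2944 of all 11971 genes (24.6%). Only Gbp2b and Sgms2, a sphingomyelin synthase, passed the 2-fold threshold. Sgms2 ran from 5.71 to 5.98 in WT and from 6.59 to 7.05 in the mutant (1.04, adjusted p = 1.67e-14). In 5 genes of this window (8.06%, against 1.11% of all genes tested and 1.94% of those on chromosome 3) every mutant library lay beyond the same 26 other unstimulated libraries. All 5 lie on the side of Nfkb1 with the higher coordinates: Dapp1 at 2.35 Mb (-0.37), Rap1gds1 at 3.34 Mb (-0.21), Pdlim5 at 6.65 Mb (-0.50), Gbp2b, and Hs2st1 at 8.85 Mb (0.16). Their differences from DMSO-treated WT cells were -0.30, -0.31, -0.60, 5.83 and 0.17. By adjusted p, 20 of 33 genes differed from WT on the side with the lower coordinates (60.6%) and 15 of 28 on the side with the higher (53.6%).

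**Figure D2:**
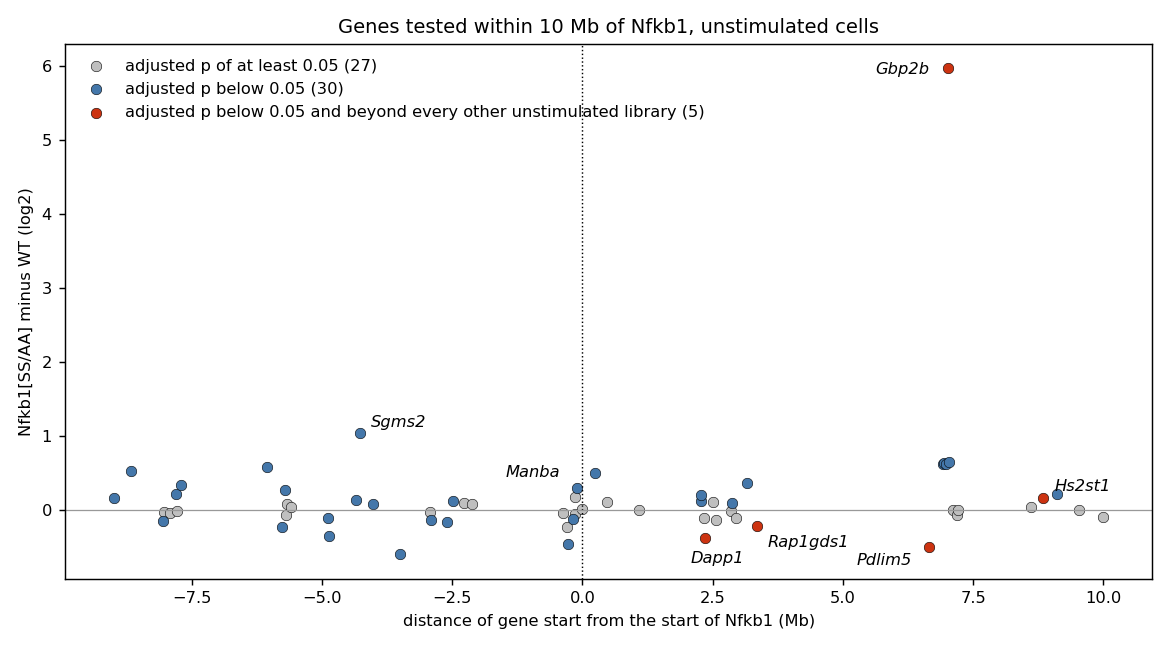
Difference between Nfkb1[SS/AA] and WT libraries on the log2 scale for the 62 genes tested within 10 Mb of Nfkb1, by distance from Nfkb1 in Mb. Red points are the 5 genes whose mutant libraries all lie beyond the 26 other unstimulated libraries, blue points have an adjusted p below 0.05, and Gbp2b stands at 5.96.

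Saa3 (chr7:46711998-46719615) encodes a serum amyloid A protein, an acute-phase product of activated macrophages that NF-kB induces. It was at 4.96, 5.35, 5.56, 4.83, 4.88 and 4.67 in the WT libraries and at 6.64, 6.42, 6.39, 7.14, 6.91 and 9.11 in the mutant libraries. All mutant libraries were above all WT libraries, and replicate 6 was the highest. The difference was 2.06 (SE 0.20, adjusted p = 1.01e-14), and 1.56 against DMSO-treated WT cells (adjusted p = 1.13e-06).

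The NF-kB target list as a whole was mixed. Of 39 genes tested, 11 were higher and 6 lower by adjusted p (16.9% and 15.1% of all genes), with a median of 0.11, and 6 were higher and 7 lower without mutant replicates 4 and 6 (13% and 11.6% of all genes in that fit). Only Saa3 and the chemokine gene Ccl5 passed the 2-fold threshold. Ccl5 was at 7.55 to 8.11 in WT and at 8.41, 8.27, 8.11, 9.20, 8.61 and 10.70 in the mutant libraries, so that replicates 4 and 6 carried most of its difference of 1.01 (adjusted p = 6.99e-06). Without these replicates it was 0.47 (adjusted p = 0.0157). The signalling adaptor Traf1 was lower in the mutant (9.03 in WT and 8.20 in the mutant on average, -0.83), as were the monocyte chemokines Ccl7 (-0.67) and Ccl2 (-0.43). Vcam1, an adhesion molecule (0.66), and Irf1, an interferon-regulated transcription factor (0.34), were higher. From DMSO-treated WT cells Vcam1, Irf1 and Traf1 differed by -0.11, -0.16 and -0.30 and did not pass, whereas Ccl7 (-0.39) and Ccl2 (-0.42) did. Of the same list 4 genes were higher and 4 lower than in DMSO-treated WT cells (9.32% and 8.75% of all genes).

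Genes of cholesterol synthesis were higher in the mutant throughout. Of 23 genes listed, 22 were tested, and all 22 were higher in the mutant by adjusted p and without overlap between the groups (in all genes tested, 8.13% were higher without overlap). The median difference was 1.03 and 12 passed the 2-fold threshold. Mvd, which makes isopentenyl diphosphate by decarboxylating mevalonate diphosphate, ran from 8.39 to 8.79 in WT (median 8.50) and from 9.90 to 10.38 in the mutant (median 10.05), a difference of 1.56 (SE 0.09, adjusted p = 2.73e-29). Hmgcs1, which makes HMG-CoA at the start of the pathway, ran from 10.97 to 11.31 (median 11.25) and from 12.43 to 12.81 (median 12.62), a difference of 1.43. Lss, which closes the sterol rings (1.49), Fdft1, the squalene synthase (1.42), Acat2, which condenses acetyl-CoA (1.36), Hsd17b7 (1.31), Fdps (1.29) and Idi1 (1.22) followed. Srebf2, the transcription factor of the pathway, differed by 0.42.

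This group was also higher in the DMSO-treated WT cells of another experiment. All 22 tested genes were higher there than in the untreated WT libraries by adjusted p (12.5% of all genes), with a median of 0.95. The mutant differed from DMSO-treated WT cells in 2 of the 22 (9.32% of all genes were higher in that comparison), Mvd (0.32) and the mevalonate kinase gene Mvk (0.42), with a median of 0.15. Hmgcs1 and Fdps differed by -0.05 and -0.01. Expressed as the median over the list of each library's value minus the WT mean, the 6 mutant libraries stood at 0.94 to 1.21, the WT libraries at -0.23 to 0.13, the DMSO-treated libraries at 0.90 to 0.99 and those given PD0325901 for 10 min at 0.93 to 1.01. Elk1-/-Elk4-/- libraries were at 0.40 to 0.54, RSKi47-treated libraries at -0.30 to 0.22 and Map3k8[D270A] libraries at -0.22 to 0.12. WT libraries given DMSO or PD0325901 thus stood nearly as far from the untreated WT libraries in this list as the mutant libraries did, whereas those given RSKi47 did not. These libraries also differ from the untreated ones by treatment, and what part the experiment had in the difference was not tested.

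**Figure D3:**
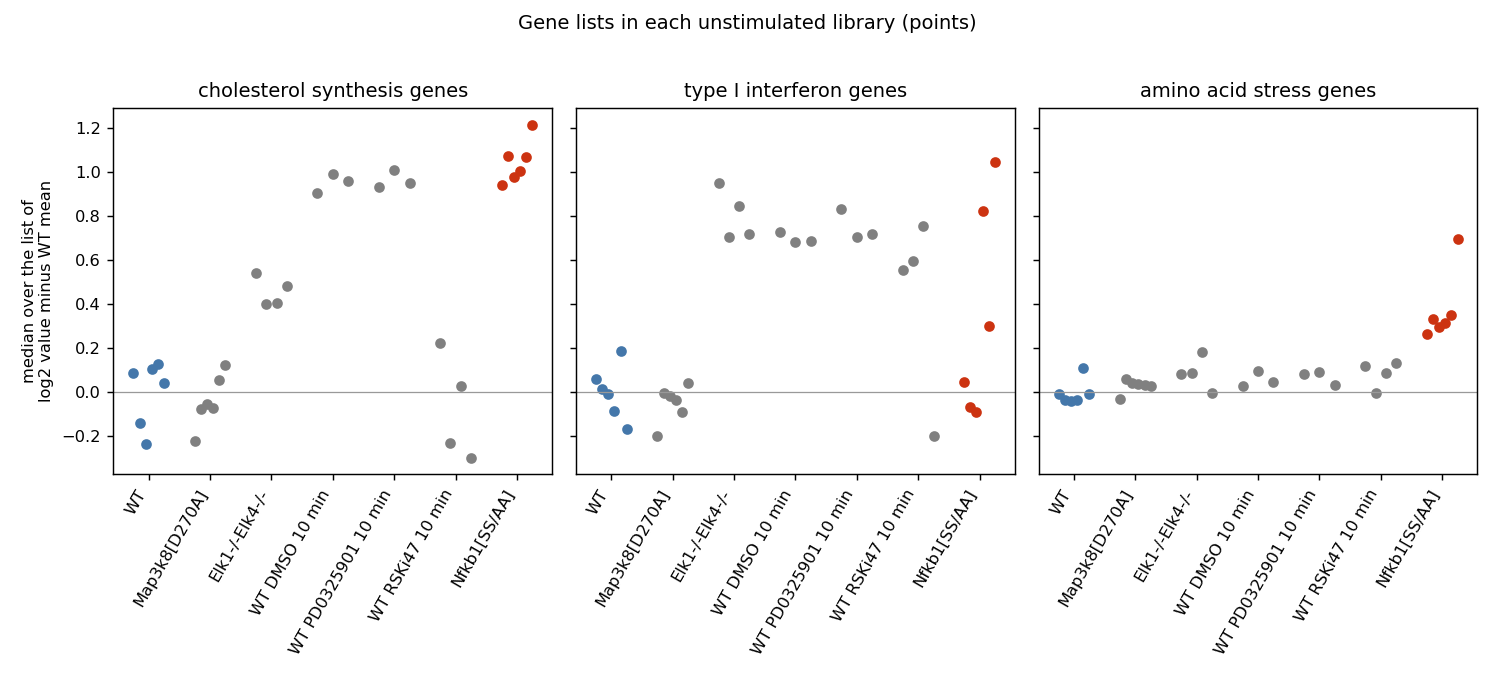
Level of 3 gene lists in each unstimulated library (1 point each), as the median over the list of the log2 value minus the WT mean, for WT (blue), Nfkb1[SS/AA] (red) and 5 other groups (grey). Cholesterol synthesis genes are at 0.94 to 1.21 in the mutant and 0.90 to 0.99 in DMSO-treated WT libraries, while amino acid stress genes are at 0.26 to 0.70 in the mutant and at most 0.19 in the other groups shown.

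Other genes of lipid metabolism were mixed. Of the 18 genes in the LXR and lipid handling list 7 were higher and 4 lower (16.9% and 15.1% of all genes), and 4 passed the 2-fold threshold: the desaturase genes Scd1 (1.23) and Scd2 (1.06) and the fatty acid binding protein genes Fabp4 (1.09) and Fabp5 (1.23). Fabp5 ran from 13.55 to 13.98 in WT and from 14.77 to 15.11 in the mutant, above all 26 of the other unstimulated libraries described above. From DMSO-treated WT cells Fabp4 and Fabp5 differed by 0.44 and 0.42 (adjusted p = 0.012 and 0.0032), and Scd1 and Scd2 by -0.26 and -0.02. Outside the lists, the changed genes also held Acss2 (1.19) and Aacs (1.17), which activate acetate and acetoacetate to their CoA forms, and Soat2 (1.08), which esterifies cholesterol. From DMSO-treated WT cells Acss2 differed by 0.12 and did not pass (adjusted p = 0.443), while Aacs (0.32) and Soat2 (0.69) did. Among the 4 lower genes were the cholesterol exporter gene Abca1 (-0.27, adjusted p = 0.0498) and Nr1h3, which encodes LXR-alpha (-0.30), whereas the exporter gene Abcg1 did not pass the test (-0.10).

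The response to amino acid shortage was higher in the mutant against both WT groups. In this response the transcription factor ATF4 induces transporters and enzymes that supply amino acids. Of 21 genes tested 15 were higher (16.9% of all genes) and 1, the lipoprotein receptor gene Vldlr, was lower (-0.25; 15.1% of all genes), and the median difference was 0.38. Phgdh, the enzyme that starts serine synthesis, ran from 7.21 to 7.57 in WT (median 7.36) and from 8.64 to 9.45 in the mutant (median 8.94). The difference was 1.60 (SE 0.10, adjusted p = 9.81e-26). Asns, the asparagine synthetase, ran from 8.30 to 8.66 and from 9.45 to 10.04 (1.2, adjusted p = 7.87e-23). Chac1, which degrades glutathione, ran from 4.39 to 4.74 and from 5.54 to 6.36 (1.29), and Trib3, a pseudokinase that restrains the response, from 6.96 to 7.17 and from 7.80 to 8.69 (1.03). No mutant library overlapped the WT range for any of these 4 genes, and replicate 6 was the highest for each. Atf4 itself differed by 0.38, the serine and glycine enzymes Psat1, Psph and Shmt2 by 0.34, 0.28 and 0.19, and the transporter genes Slc7a5 and Slc3a2 by 0.69 and 0.35.

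Compared with DMSO-treated WT cells, 15 genes of this list were higher and none lower (9.32% and 8.75% of all genes tested), with a median of 0.34. Phgdh differed by 0.98, Asns by 0.66, Chac1 by 1.24 and Trib3 by 0.90, and each passed the test. The list level was 0.26 to 0.70 in the mutant libraries, -0.04 to 0.11 in WT, 0.03 to 0.09 in DMSO-treated WT libraries and 0.24 to 0.28 in the WT cells given PD0325901 for the longest time. The last of these groups therefore reached the lower end of the mutant range.

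Promoters of 3 of these genes and of Hmgcs1 are shown. They belong to changed genes whose promoter holds the element searched for, so they are not typical of their lists, whose shares are given below. The capitals mark the C/EBP-ATF response element, searched as TGATGNAA, in Asns, Chac1 and Trib3 and a sterol regulatory element, searched as TCACNCCAC, in Hmgcs1, both on either strand. The windows are chr6:7693160-7693459 on the - strand for Asns, chr2:119350992-119351291 on the + strand for Chac1, chr2:152344011-152344310 on the - strand for Trib3 and chr13:119690101-119690400 on the + strand for Hmgcs1, from RefSeq on GRCm38.p6.
Asns: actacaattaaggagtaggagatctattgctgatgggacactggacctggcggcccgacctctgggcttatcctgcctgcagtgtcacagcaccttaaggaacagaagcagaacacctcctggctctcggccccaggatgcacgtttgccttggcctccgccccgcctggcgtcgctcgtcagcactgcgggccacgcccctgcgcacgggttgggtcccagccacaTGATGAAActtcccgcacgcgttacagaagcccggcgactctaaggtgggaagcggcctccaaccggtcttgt
Chac1: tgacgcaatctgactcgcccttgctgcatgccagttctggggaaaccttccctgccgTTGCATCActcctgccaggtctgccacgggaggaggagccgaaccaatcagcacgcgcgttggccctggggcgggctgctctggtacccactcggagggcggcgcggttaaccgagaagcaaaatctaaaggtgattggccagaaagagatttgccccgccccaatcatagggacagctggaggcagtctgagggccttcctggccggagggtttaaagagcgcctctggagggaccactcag
Trib3: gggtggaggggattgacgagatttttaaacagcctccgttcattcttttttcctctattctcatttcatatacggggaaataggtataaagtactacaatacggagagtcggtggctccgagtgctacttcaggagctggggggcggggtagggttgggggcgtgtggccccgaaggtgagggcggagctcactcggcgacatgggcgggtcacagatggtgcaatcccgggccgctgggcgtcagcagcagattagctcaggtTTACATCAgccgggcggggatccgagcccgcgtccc
Hmgcs1: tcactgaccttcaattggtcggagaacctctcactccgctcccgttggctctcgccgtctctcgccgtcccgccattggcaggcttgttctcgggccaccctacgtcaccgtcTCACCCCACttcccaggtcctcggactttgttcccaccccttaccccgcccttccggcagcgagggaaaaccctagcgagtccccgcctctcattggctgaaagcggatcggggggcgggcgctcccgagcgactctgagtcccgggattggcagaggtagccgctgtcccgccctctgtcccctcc
The first element was found in 7 of 19 genes of the amino acid list with a promoter in the table (36.8%), in 2.90% of the tested genes and in 3.97% of all promoters. The sterol element was found in 1 of 15 genes of the cholesterol list, Hmgcs1 itself (6.67%). It was found in 1.38% of the tested genes and in 1.24% of all promoters, and the search covers only these letters in this window.

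Interferon-stimulated genes separated the mutant libraries from each other. Of 59 genes tested 26 were higher in the mutant and none lower (16.9% and 15.1% of all genes), with a median of 0.30. The groups did not overlap for 2 of the 59 (8.13% of all genes were higher without overlap): Cxcl10, a chemokine gene (0.88, adjusted p = 0.000129), and Ifnb1, the gene of interferon-beta, which did not pass the test (0.31, adjusted p = 0.354). Ifit2, which binds viral RNA, was at 11.20 to 11.91 in WT and at 11.87, 11.75, 11.76, 13.53, 12.56 and 13.85 in mutant replicates 1 to 6. Replicates 4 and 6, and to a lesser degree 5, were above WT, and replicates 1 to 3 were within or close to its range. The list level was -0.17 to 0.19 in the WT libraries and -0.09 to 1.05 in the mutant libraries. Without replicates 4 and 6, 0 of 59 genes were higher and 2 lower (13% and 11.6% of all genes) with a median of 0.07, and Ifit2 differed by 0.44 (adjusted p = 0.274). With DMSO-treated WT cells as the control none were higher and 8 lower (9.32% and 8.75% of all genes), with a median of -0.32.

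Of the changed genes outside the lists, 4 that were chosen after their values were seen were highest in mutant replicates 4 and 6, as were others such as the haptoglobin gene Hp. Ifit1bl1 (1.25) and Ifit3b (1.00) belong to the Ifit family, Irg1 is the enzyme that makes itaconate (1.08), and Cfb is complement factor B (1.09). Ifit1bl1 and Ifit3b differed by 0.56 and 0.45 without replicates 4 and 6 and no longer passed (adjusted p = 0.108 and 0.294), whereas Irg1 (0.65) and Cfb (0.63) did. None of the 4 passed against DMSO-treated WT cells, where Irg1 differed by 0.46 (adjusted p = 0.121), Cfb by -0.03, Ifit1bl1 by -0.37 and Ifit3b by -0.52. Irg1 was at 8.35 to 8.68 in WT and at 9.11, 9.08, 9.19, 10.31, 9.48 and 10.72 in the mutant libraries. It was thus above WT in all of them and highest in replicates 4 and 6. Cfb was at 5.09 to 5.44 in WT and reached 8.0 in replicate 6, with the other mutant libraries at 5.51 to 6.58. The 6 Ifit2 values and the 6 Gbp2b values ranked replicates 4 and 6 above the rest in the same way.

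Among the genes lower in the mutant, Qpct had the smallest p-value, and the smallest of all genes tested. Qpct (chr17:79051906-79090378), a glutaminyl cyclase that forms pyroglutamate at the ends of proteins such as chemokines, was at 10.31, 10.45, 10.50, 10.45, 10.28 and 10.55 in WT and at 8.99, 9.16, 9.13, 8.94, 8.88 and 9.02 in the mutant. The groups were far apart, with a difference of -1.40 (SE 0.06, adjusted p = 1.44e-39), and the difference was -1.62 against DMSO-treated WT cells. The other unstimulated groups had mean values from 10.04 to 10.72. Plxdc2 (chr2:16355740-16761132), a membrane protein with a plexin domain, was at 8.83 to 9.95 in WT and 7.93 to 8.73 in the mutant (-1.41, and -1.38 against DMSO-treated WT cells).

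Single genes of macrophage surface proteins were also lower. Siglec1, the sialic acid receptor CD169, was at 11.80 to 11.99 in WT and at 10.66 to 11.22 in the mutant (-1.07, SE 0.12, adjusted p = 1.05e-11). The lectin gene Mgl2 was at 5.25 to 5.78 and at 4.30 to 4.89 (-1.04). Cx3cr1, the fractalkine receptor (-1.03), had overlapping ranges. Adgre1, the F4/80 marker (-0.38), Mrc1, the mannose receptor (-0.38), and Itgam, the integrin CD11b (-0.23), were lower by less, while Lyz2 (0.30), Cebpa (0.23) and Cd68 (0.13) were higher. The other 8 of the 14 macrophage markers, among them Csf1r (0.11), Cd14 (-0.16) and Mertk (-0.01), did not pass the test. Siglec1 and Cx3cr1 were also lower than in DMSO-treated WT cells, by -0.51 and -0.78, and Mgl2 did not pass that test (-0.15). Of 12 genes of alternative activation 4 were lower (15.1% of all genes): Mgl2, Mrc1, the lectin gene Clec10a (-0.60) and the chitinase-like gene Chil3 (-0.39). Only 1, the chemokine gene Ccl22, was higher (0.37), where 16.9% of all genes were. In these bulk samples, fewer cells of a type and less RNA per cell cannot be told apart.

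The remaining lower genes named by the rule were the growth factor gene Bmp2 (-1.30), Lrrc17 (-1.27), Armcx2 (-1.21), the arsenic methyltransferase gene As3mt (-1.16), the organic anion carrier gene Slco2b1 (-1.14), the lipase inhibitor gene Angptl4 (-1.12) and the unnamed gene model Gm44504 (-1.45). Their groups did not overlap. Only Slco2b1 of these passed against DMSO-treated WT cells (-0.49, adjusted p = 0.00919), and Lrrc17 and As3mt were at 0.12 and 0.13. Amd1, an enzyme of polyamine synthesis, had the lowest difference of all (-1.79) but split the mutant libraries, at 6.61, 8.92, 9.74, 6.54, 10.06 and 6.54, against 9.43 to 10.13 in WT. Without replicate 1, 4 or 6 the difference was -1.5, -1.48 and -1.48 and no longer passed the test (adjusted p = 0.0549, 0.0608 and 0.0616). H2-Q8 (-1.0) and H2-Q9 (-1.15) are near-identical class I genes, for which the division of reads is uncertain.

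Of 8 MHC class II genes tested 5 were lower (15.1% of all genes): H2-Ab1 (-0.89), H2-Aa (-0.80), H2-Eb1 (-0.79), the invariant chain gene Cd74 (-0.60) and Ciita (-0.58), the coactivator that drives them. Their adjusted p lay between 0.00449 and 0.0442, the groups overlapped for each, and the loading chaperone genes H2-DMa and H2-DMb1 did not pass the test. The median of the list was -0.61 against DMSO-treated WT cells, and 2 of the 8, Cd74 and Ciita, were lower (8.75% of all genes).

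Immediate early genes, which ERK induces through TCF and SRF, were tested before any LPS was given. Of 37 genes 10 were lower and 1, Maff, was higher (0.39), where 15.1% and 16.9% of all genes were, and the median was -0.08. Egr3, a zinc finger transcription factor, had means of 7.00 in WT and 6.22 in the mutant (-0.78), Dusp5, a phosphatase of ERK, 7.34 and 6.60 (-0.74), Fos 10.69 and 10.23 (-0.45), and Dusp6, another ERK phosphatase, 9.93 and 9.58 (-0.35). None of the 37 passed the 2-fold threshold. Relative to DMSO-treated WT cells 3 of the 37 were lower, a share no higher than the 8.75% of all genes: Egr3 (-0.60), Fos (-0.55) and the cyclin gene Ccnd1 (-0.41). Of the 19 genes of the MAP kinase chain 1 was higher and 4 were lower, by at most 0.15, where 16.9% and 15.1% of all genes were.

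Of 13 heat shock genes tested 8 were lower (15.1% of all genes), led by Hsph1 (-0.48) and Hsp90aa1 (-0.42), and Bag3 was higher (0.23), and 8 were lower against DMSO-treated WT cells (8.75% of all genes). Of 17 NRF2 target genes, which defend against oxidants, 9 were higher (16.9% of all genes), among them Gclm (0.43), and Osgin1 was lower (-0.25). Without mutant replicates 4 and 6, 3 were higher, a share near the 13% of all genes in that fit. Against DMSO-treated WT cells 10 were higher (9.32% of all genes), but only Gclm, Taldo1 and Pgd were higher against both controls. Osgin1 turned, to 0.67, and Gclc and Srxn1 passed only against DMSO-treated WT cells (0.38 and 0.53). Cell cycle genes differed little from WT (0 higher and 3 lower of 48), but 28 were lower than in DMSO-treated WT cells (8.75% of all genes), with a median of -0.52. Ribosomal protein genes (13 higher and 6 lower of 82), oxidative phosphorylation genes (9 and 10 of 78), glycolysis and hypoxia genes (6 and 8 of 28) and LPS receptor and adaptor genes (6 and 4 of 26) were mixed in direction, with none past 2-fold. In the ribosomal and oxidative phosphorylation lists each count was a smaller share than the 16.9% higher or 15.1% lower of all genes.

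The same genotypes were compared after LPS in other libraries, 6 of each group at 0.5 h and at 1 h. Of the 43 genes higher without LPS, 42 were higher by adjusted p at 0.5 h and 41 at 1 h, and of the 18 lower genes 17 were lower at each time. In all genes tested, 16.7% were higher and 15.6% lower at 0.5 h and 20.5% and 21.9% at 1 h. With the 2-fold threshold as well, 33 of the 43 and 9 of the 18 were called at 1 h (0.501% and 0.668% of all genes tested). The median difference of the higher genes was 1.13 without LPS, 1.11 at 0.5 h and 1.17 at 1 h, and that of the lower genes was -1.14, -1.07 and -0.98. Gbp2b differed by 5.82 and 7.13, Saa3 by 2.01 and 2.12, Phgdh by 1.67 and 1.75, and Qpct by -1.38 and -1.41. Whether these libraries share cultures with the unstimulated ones is not in the labels, and genotype and experiment coincide in them too.

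The change of the genotype difference with LPS was tested by an interaction term. At 0.5 h it passed for 37 of the genes tested (0.309%) and none of the 61, and at 1 h for 727 (6.07%) and 4 of the 61. With only the 36 libraries of these groups in the fit it passed for 15 and 466 genes. Chac1 moved from 1.29 without LPS to 2.00 at 1 h (adjusted p = 0.0267) and Trib3 from 1.03 to 1.53 (adjusted p = 0.0354), while Angptl4 moved from -1.12 to -0.46 and Gm6402 from 1.03 to 0.23. Among the NF-kB genes, Nfkbia differed by -0.05 without LPS and by -0.62 at 1 h (adjusted p = 3.91e-10), Nfkbid by 0.05 and -0.81, Nfkbib by 0.13 and -0.27, and Rel by 0.01 and -0.63. Of the 37 immediate early genes 10 were lower without LPS (15.1% of all genes) and 31 at 1 h (21.9% of all genes), with a median of -0.75 at 1 h, and the difference between these counts was not tested.

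**Figure D4:**
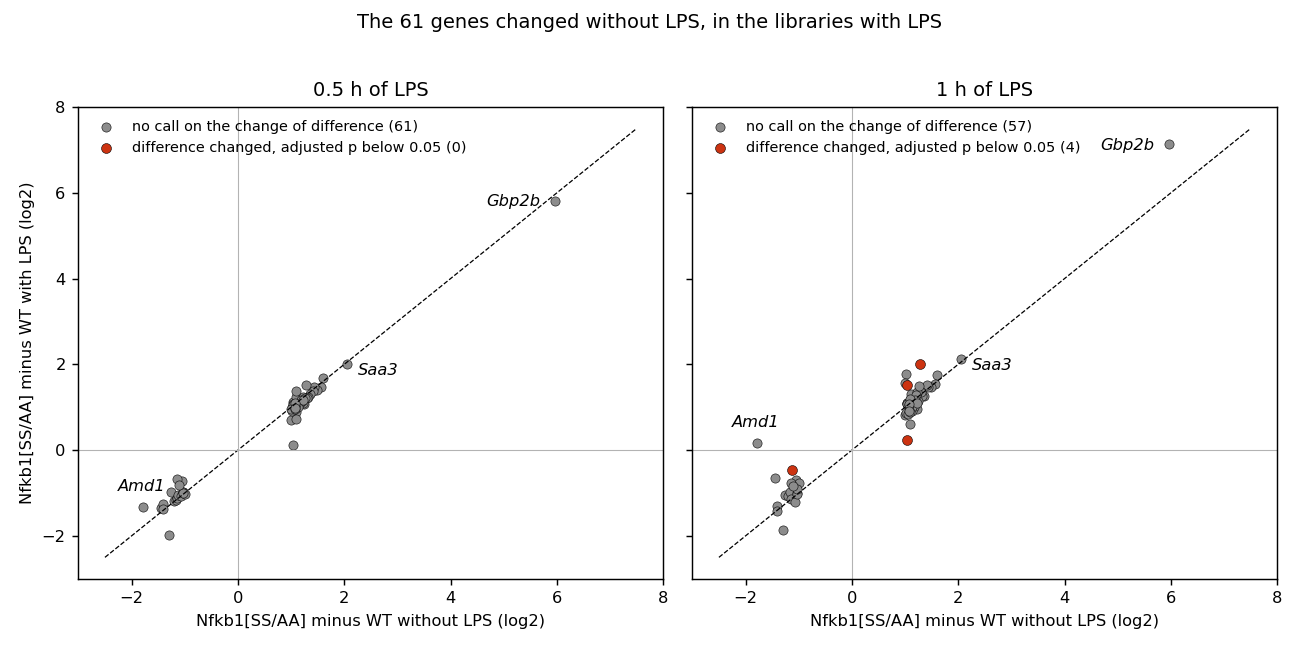
Difference between Nfkb1[SS/AA] and WT libraries at 0.5 h (left) and 1 h (right) of LPS against the difference without LPS, on the log2 scale, for the 61 genes changed without LPS; the dashed line marks equal differences. Red points are the 4 genes whose difference changed at 1 h by the interaction test, and Gbp2b stands at 5.82 and 7.13.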

How the data were processed

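RNA-seq was done by the authors on BMDM libraries, aligned with STAR to mm10 and counted per RefSeq gene with RSEM, with DESeq2 for differential expression. The submitters' processing notes give STAR 2.5.1b, RSEM 1.2.29 and DESeq2 1.10.1. The deposited log2 values were normalized by the authors, in a way not stated in the sources used, and were analysed as they stand with no pseudocount. A single value above 25 was treated as missing. The test covered the 11971 of 18098 genes that reached 10 on the linear scale in 3 libraries. Its fit (limma 3.58.1, R 4.3.3, moderated, no trend) had 1 mean per group over all 119 libraries, and p-values were adjusted by Benjamini-Hochberg over the genes tested. Changed genes had an adjusted p under 0.05 and differed by 1 or more. The fit was tested on simulated data before use.

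The genes named are the 12 changed genes with the largest difference in each direction whose groups do not overlap, the members of the lists of the p105 complex and IKK, NF-kB subunits and IkB family, any changed member of another list, and the sex-linked genes. Other genes were named after their values were seen, and some genes that the rule names are not reported here. The comparison, members and lists were chosen with earlier results of these data known. Gene positions and promoters are those of RefSeq on GRCm38.p6, with 17293 genes matched by symbol, 732 by synonym and 73 not matched. Marker sums are log2 of summed linear values. Alternatives were other filters, thresholds, controls and fits, each library centred, each replicate left out, and a replicate block.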

Additional observations from a re-analysis of the deposited data

Results flagged for a closer look

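In 126 groups of 6 libraries, 1 for each named gene and genotype, the highest or lowest library was checked for standing apart from the other 5, and 13 did. Chance alone gives about 1 in 20. In the mutant libraries these were Saa3 in replicate 6 at 9.11, Siglec1 and Trib3 in the same replicate at 11.22 and 8.69, Gm44504 and Nfkb1 in replicate 4 at 5.84 and 11.52, Map3k8 in replicate 1 at 9.15 and Ikbkb in replicate 3 at 10.90. In the WT libraries they were Plxdc2 and Sgms2 in replicate 4 at 8.83 and 5.98, Mgl2 and Kdm5d in replicate 8 at 5.25 and 9.36, Nfkb1 in replicate 7 at 11.27 and Xist in replicate 6 at -1.30. Of the 7 in the mutant group, replicates 4 and 6 hold 5. Xist was too low to be tested, at -1.36 to -1.30 in all 12 libraries.

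For 9 named genes the genotype difference at 1 h of LPS differed from that without LPS by the interaction term of limma. The change was 0.71 for Chac1, 0.66 for Angptl4, 0.50 for Trib3 and 0.25 for Relb. It was -0.86 for Nfkbid, -0.64 for Rel, -0.57 for Nfkbia, -0.39 for Nfkbib and -0.25 for Gsk3b. At 0.5 h no named gene passed.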

How the results depend on the processing

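Genotype coincides with experiment, which no alternative removes, and the depth of each library is not known here. Of the 61 changed genes, all that each alternative could test kept their direction except with DMSO-treated WT cells as the control; with that control 23 kept their call, 25 lost it and 13 turned. There were then 19 changed genes (13 higher and 6 lower) and 2164 by adjusted p alone (1116 and 1048). The values that turned were Hmgcs1 -0.047, Fdps -0.0095, Cyp2s1 -0.20, Lrrc17 0.12, As3mt 0.13, Ifit2 -0.44, Scd1 -0.26, Scd2 -0.015, Ddx3y 0.058, Amd1 0.36, Cfb -0.031, H2-Q9 0.33, Ifit1bl1 -0.37, Ifit3b -0.52, the median of the IkB family 0.059 and that of the interferon genes -0.32; the cause was not tested. With mutant replicates 4 to 6 alone 82 genes were higher and 23 lower, with replicates 1 to 3 alone 27 higher and 22 lower, and 2368 by adjusted p alone (1241 higher and 1127 lower). With WT replicates 4 to 6 as the control there were 32 lower. A threshold at the natural logarithm of 2 gave 201 (120 higher and 81 lower) and 1.5-fold 297 (169 and 128). Leaving out each replicate in turn gave 47 to 66 changed genes. Leaving out mutant replicates 4 and 6 together, chosen after seeing the data, gave 54, with 55 of the 61 keeping their call. The filters, the fits of the 12 libraries alone or with a trend, and centring gave 56 to 61, and WT replicates 4 to 6 or 7 to 9 as the control 75 and 72. A fit of the 36 libraries of both arms alone gave 15 and 466 genes for the change of the difference at 0.5 and 1 h. Libraries of both groups share the numbers 4, 5 and 6, and their deviations correlated by 0.009, 0.054 and 0.062. Pairs with different numbers ran from -0.26 to 0.29, so these values cannot show whether the numbers pair the libraries. A replicate block on these 6 libraries gave 111 changed genes (81 higher and 30 lower) and 2553 by adjusted p (1338 higher), and without the block the same libraries gave 111 (81 and 30), a setting added after seeing the data.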

Other observations

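Among the sex-linked genes, Ddx3y (-0.17), Kdm5d (-0.21) and Uty (-0.15) were slightly lower in the mutant by adjusted p and Eif2s3y did not pass (adjusted p = 0.999), and all 12 libraries held these Y-linked transcripts at 8.93 or more.

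Among the transcripts that mark the other cell types a culture could hold, the osteoclast list had 4 genes higher and 2 lower of 7 tested (16.9% and 15.1% of all genes). Ctsk, a bone-resorbing protease (0.87), and Atp6v0d2, a proton pump subunit (0.43), were higher, and Acp5, the osteoclast phosphatase (-0.85), and the gelatinase gene Mmp9 (-0.78) were lower. Against DMSO-treated WT cells none of these 4 passed the test (0.23, 0.17, -0.19 and 0.18), and 1 of the 7, Ocstamp, was higher (0.42, adjusted p = 0.0238; 9.32% of all genes). The list summed to 12.41 to 13.19 in WT and 13.05 to 13.42 in mutant libraries, and Calcr and Oscar were below 0 in both groups. The ribosomal RNA transcript Rn45s had means of 15.35 in WT and 14.53 in the mutant, with no overlap between the groups and an adjusted p of 0.372.

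Of 4 genes known to differ between mouse substrains 2 were tested. Casp4 was higher in the mutant (0.36, adjusted p = 0.00136) and Nnt was lower (-0.09, adjusted p = 0.0210), at 9.14 against 9.24 in WT. The transcript length of a gene had a Spearman correlation across 11579 genes of 0.06 with the difference from WT and of -0.10 with that from DMSO-treated WT cells; genes are not independent replicates.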
